A study of Mus musculus with 24 samples.

Results

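Messenger RNA levels in mouse liver were compared with those in mouse heart on 16 bead arrays, 8 of liver and 8 of heart, out of 24 arrays in a series whose other 8 are of brain. The arrays were taken by the tissue in their label and paired by the time in it, so that each of 8 times gave 1 liver and 1 heart array. All mice were female C57BL/6 animals of 5 weeks. The mice of 1 time were untreated, and those of the other 7 received a water extract of Ephedra herba orally at 50 mg/kg, with tissue taken at 1, 6, 12 and 24 hours and at 3, 5 and 10 days. Ephedra herba is a plant drug whose alkaloids act on adrenergic receptors. How many animals stand behind an array is not given in the sources used here, nor is whether 1 animal gave both organs. No tissue has a replicate at any time, so the 8 times served as the replicates of a tissue, and p-values rest on the spread over times, which may be technical.

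The liver is built mainly of hepatocytes, which secrete most plasma proteins, make bile acids and urea, store glycogen, release glucose and oxidise drugs. The heart is built by mass mainly of cardiomyocytes, which contract without rest and draw their ATP from mitochondria that burn fatty acids, lactate and ketone bodies. Many enzymes of energy metabolism exist as separate genes for liver and for striated muscle, and the pairing of these tissues sets such forms against each other.

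A value is the deposited log2 intensity, centred so that 0 is close to the median probe of an array. A difference of 1 between tissues is therefore a 2-fold difference, and every difference below is liver minus heart. Of 16110 genes, each read by its brightest probe, 9032 lay above the array median on at least 8 of the 16 arrays and were tested with limma, with time as a block. A gene was called at a Benjamini-Hochberg adjusted p under 0.05 and a difference of at least 2-fold. A gene below the median on all 8 arrays of 1 tissue was tested only if above it on all 8 of the other. Such genes entered through the tissue where they are high, which favours a call. A level is the reading of 1 probe and was compared between tissues, not between genes. In pieces of whole tissue, fewer cells of a type and less RNA per cell cannot be told apart.

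Several arrays carried transcripts of other tissues. The liver array of 1 hour had 7 of 7 skeletal muscle markers and 8 of 11 cardiomyocyte markers above its median, with medians of 2.46 and 0.92 for these lists. The skeletal troponin Tnni2 read 4.18 there, while the atrial peptide Nppa read -0.19. The same array read 2.10 for pancreatic amylase Amy2a5, against -0.15 or less on every other liver array. The liver array of 24 hours had 6 of 11 cardiomyocyte markers above its median, with a list median of 0.35. On the other 6 liver arrays, 0 to 2 of the 11 cardiomyocyte markers were above the median. Among heart arrays the median of 12 hepatocyte markers was 2.68 at 1 hour, 1.55 in the untreated mice, 0.97 at 10 days and 0.94 at 6 hours, and it ran from -0.22 to 0.66 at the other 4 times. The untreated heart array had 8 of 8 white fat markers above its median, with a list median of 2.83, against -0.15 to 0.57 on the other heart arrays. The part of such transcripts in the tissue differences was not tested, and values from 12 hours, 24 hours, 3 days and 5 days alone stand beside the results they touch.

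**Figure D1:**
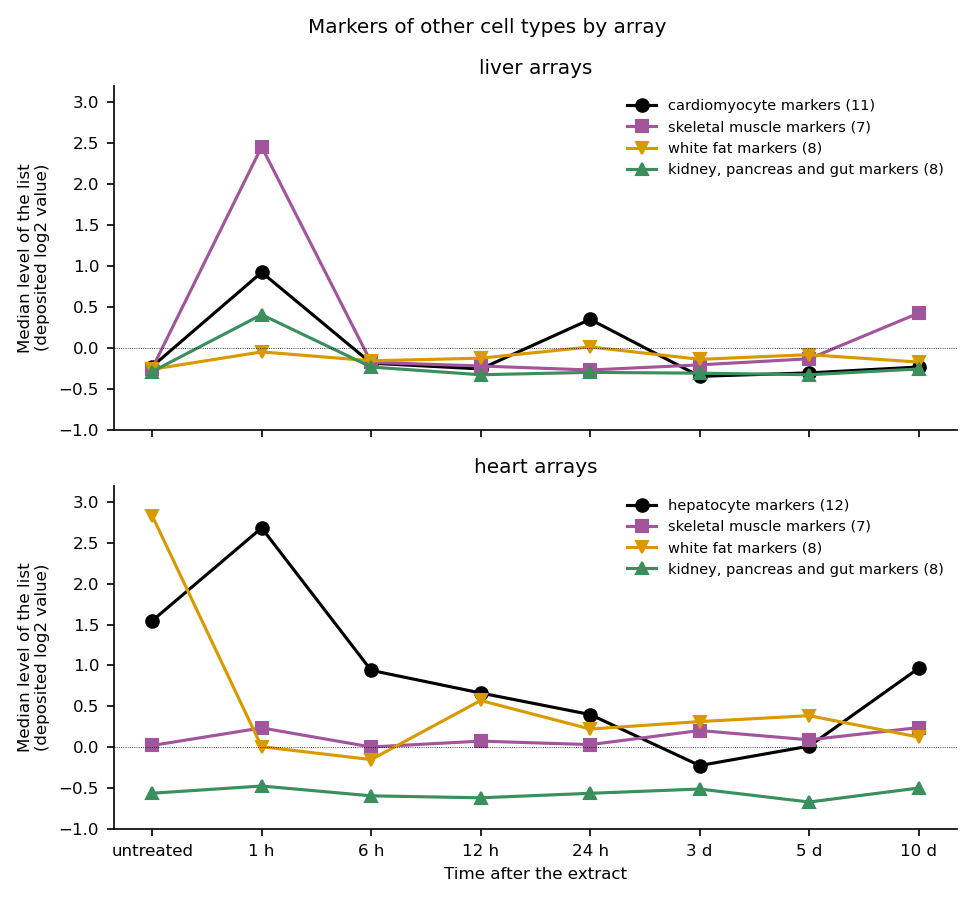
Median level of marker lists of other cell types on each liver array (top) and each heart array (bottom), in deposited log2 values, by time. The number of markers on the arrays is in brackets. Skeletal muscle markers stood out on the liver array of 1 hour (2.46), hepatocyte markers on the heart array of 1 hour (2.68) and white fat markers on the untreated heart array (2.83).

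Each tissue carried its own defining markers on every array. In liver, 10 of 12 hepatocyte markers on the arrays were above the median on all 8 arrays, and all 10 that were tested were called higher in liver. Of the cardiomyocyte markers, 11 of 11 were above the median on all 8 heart arrays, and all 11 were called lower in liver. The value distributions differed in shape. The median absolute deviation was 0.361 ± 0.0037 on liver arrays and 0.598 ± 0.0015 on heart arrays (SD, n = 8 each; exact sign-change test over 8 pairs, two-sided p = 0.0078, the smallest it can give). The 5th percentile was -0.452 ± 0.013 on liver arrays and -0.711 ± 0.0081 on heart arrays (SD, n = 8 each; exact p = 0.0078), so the dimmest probes sat higher in liver. The brightest value ran from 7.84 to 11.2 over liver arrays and from 8.31 to 9.45 over heart arrays, and values near that top can understate a difference.

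Of the 9032 genes tested, 1154 (12.8%) were called higher in liver and 1828 (20.2%) were called lower in liver. These percentages are the background for every count below that was made on all 16 arrays as deposited. The median difference of all tested genes was -0.23. Of the called genes, 645 were at least 4-fold higher in liver and 673 at least 4-fold lower. The liver minus heart difference had the same sign at all 8 times in 1128 of the genes called higher and in 1766 of those called lower. Of 16110 genes, 236 were above the median on all 8 liver arrays and on 0 heart arrays, and 226 on all 8 heart arrays and 0 liver arrays. The split of calls moved with the scaling of the arrays. The share of calls that were higher in liver was 38.7% as deposited, 45.7% after quantile normalization over the 16 arrays, 55.3% after centring on genes above the median on all 16 arrays, and 80.7% when arrays were scaled to a common median absolute deviation. The last setting, the common spread scaling, shifted the median difference to 0.47. It stretches liver values and shrinks heart values, so its differences are in scaled units and not log2 units. A difference of 1 stayed the limit for a call there but is not 2-fold. Of the 2982 genes called as deposited, the common spread scaling kept the call of 1951 and called 133 in the opposite direction. Other settings have other backgrounds among the 9032 genes. Common spread scaling called 3331 higher and 797 lower, and quantile normalization over the 16 arrays 1288 and 1530. On untreated mice, 1 hour and 10 days alone 935 were called higher and 2397 lower. Calls on 6, 12 and 24 hours and 5 days alone were 1523 and 1584. Those on 12 and 24 hours, 3 and 5 days alone were 1266 and 1705.

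**Figure D2:**
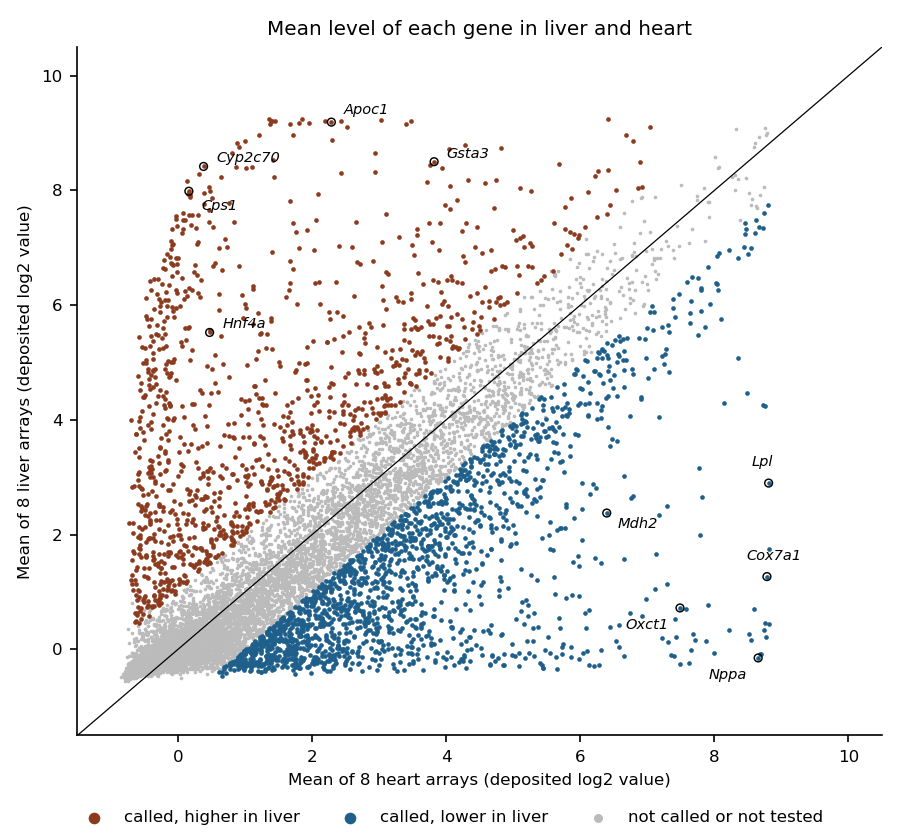
Mean of the 8 liver arrays (vertical) against mean of the 8 heart arrays (horizontal) for 16110 genes, in deposited log2 values, with the line of equality. Brown points are the 1154 genes called higher in liver and blue points the 1828 called lower. The genes with the largest differences lie along the left and bottom edges, and Lpl and Mdh2 are heart genes that liver also read above its median.

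The 10 largest differences toward liver were those of Cyp2c70, Cyp3a11, Plg, Apoc4, Apoc3, Azgp1, Orm1, Ces1c, Cps1 and Hpx, from 8.03 to 7.81. Cyp2c70, a bile acid hydroxylase of mouse liver, ran from 7.16 to 10.0 with a median of 7.92 on liver arrays. On heart arrays it ran from -0.66 to 2.40 with a median of -0.05, above the array median on 4 of 8. The groups did not overlap, and the difference was 8.03 (SE 0.57, adjusted p = 6.64e-07). Cyp3a11, a main drug-oxidising cytochrome P450, averaged 8.17 ± 1.31 in liver and 0.13 ± 0.95 in heart (SD, n = 8 each). Orm1 and Hpx encode the plasma proteins orosomucoid and hemopexin, and Ces1c a carboxylesterase secreted into plasma. Hpx read 10.6, 10.4 and 11.2 in liver at 6, 12 and 24 hours, against 7.83 to 8.95 at the other 5 times. The liver arrays of those 3 times were brighter as a whole at the upper end, with 95th percentiles of 5.15 to 5.36 against 4.13 to 4.52 and brightest values of 10.6 to 11.2 against 7.84 to 9.42 at the other times.

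The 10 largest differences toward heart were those of Nppa, Actc1, Myh6, Fabp3, Myl3, Ckmt2, Myl2, Cox6a2, Cox8b and Actn2, from -8.80 to -8.05. Nppa, the precursor of atrial natriuretic peptide, ran from -0.35 to 0.35 with a median of -0.22 on liver arrays. On heart arrays it ran from 8.22 to 9.43 with a median of 8.60. The gap between the tissues was wider than the spread within either, at -8.80 (SE 0.17, adjusted p = 1.14e-10). Myh6, the alpha myosin heavy chain of the adult mouse heart, averaged -0.08 ± 0.31 in liver and 8.68 ± 0.49 in heart (SD, n = 8 each). Myl2, the ventricular regulatory light chain, read 3.17 on the liver array of 1 hour and 2.00 on that of 24 hours, and -0.05 or less on the other 6. Ckmt2, the mitochondrial creatine kinase, and Fabp3, the fatty acid carrier of heart, read 3.01 and 2.90 on that liver array of 1 hour. Cox6a2, a muscle subunit of cytochrome c oxidase, read 3.43 in liver at 1 hour and 0.73 or less at the other times, against 8.16 to 9.42 in heart.

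**Figure D3:**
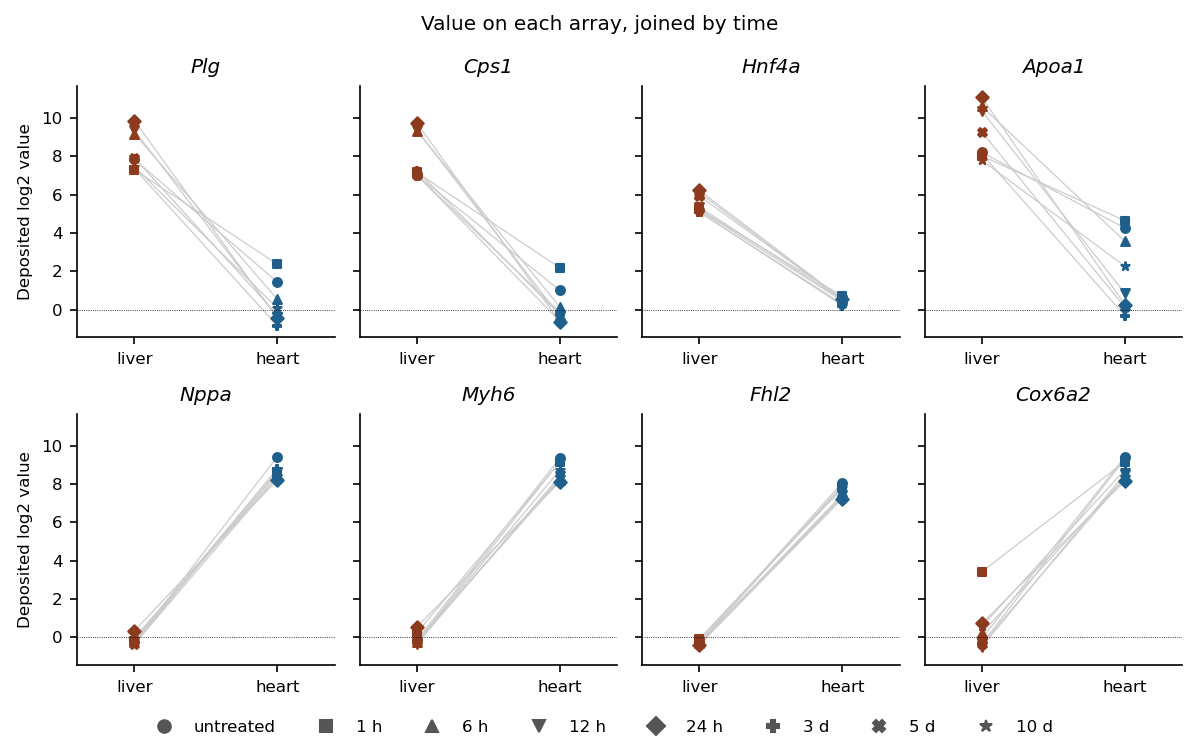
Deposited log2 values of 8 genes on each array, liver left and heart right, joined by time. The top row holds 4 liver genes and the bottom row 4 heart genes. Apoa1 reached 4.64 and Plg 2.37 on the heart array of 1 hour, and Cox6a2 reached 3.43 on the liver array of 1 hour, while Fhl2 stayed between -0.39 and -0.07 on all 8 liver arrays.

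The promoters of 4 of these genes are shown because they hold the letters of a site read by a factor that drives liver or heart genes. They are the RefSeq windows (GRCm38.p6) from 250 bases before to 50 after the start, with the motif in capitals. Each is from the called gene with the largest difference toward its tissue that holds the motif. Genes on 1 chromosome were passed over in that choice. Cyp2c70 (chr19:40187237-40187536, minus strand) holds CAAAGTCCA, the motif bound by the hepatocyte factor HNF4, and the same window also holds 1 match of the MEF2 consensus and 1 of TATAAA. Serpina1c (chr12:103904901-103905200, minus strand), an alpha-1-antitrypsin gene with a difference of 7.80, holds GTTAAT, the core of the site of HNF1. Fhl2 (chr1:43196712-43197011, minus strand) holds the MEF2 consensus, here overlapping TATAAA on the other strand, and also 1 CArG box. Actc1 (chr2:114052826-114053125, minus strand) holds a CArG box, the site of serum response factor.
Cyp2c70: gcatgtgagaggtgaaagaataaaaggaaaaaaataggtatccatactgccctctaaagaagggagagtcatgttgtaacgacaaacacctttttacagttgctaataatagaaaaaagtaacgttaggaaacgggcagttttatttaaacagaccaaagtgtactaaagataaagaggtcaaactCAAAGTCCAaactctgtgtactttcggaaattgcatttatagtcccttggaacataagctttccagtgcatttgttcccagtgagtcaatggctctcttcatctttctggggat
Serpina1c: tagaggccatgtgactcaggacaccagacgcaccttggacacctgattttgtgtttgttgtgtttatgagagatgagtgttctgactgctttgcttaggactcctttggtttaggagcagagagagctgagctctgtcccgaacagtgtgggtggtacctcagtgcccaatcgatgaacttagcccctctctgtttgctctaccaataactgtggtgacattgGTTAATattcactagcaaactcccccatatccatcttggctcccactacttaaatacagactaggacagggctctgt
Fhl2: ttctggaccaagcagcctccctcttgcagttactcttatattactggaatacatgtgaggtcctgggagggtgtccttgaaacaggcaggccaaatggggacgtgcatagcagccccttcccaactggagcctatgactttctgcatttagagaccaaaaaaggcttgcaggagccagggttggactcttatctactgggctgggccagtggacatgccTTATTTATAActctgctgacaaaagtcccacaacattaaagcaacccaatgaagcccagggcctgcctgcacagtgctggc
Actc1: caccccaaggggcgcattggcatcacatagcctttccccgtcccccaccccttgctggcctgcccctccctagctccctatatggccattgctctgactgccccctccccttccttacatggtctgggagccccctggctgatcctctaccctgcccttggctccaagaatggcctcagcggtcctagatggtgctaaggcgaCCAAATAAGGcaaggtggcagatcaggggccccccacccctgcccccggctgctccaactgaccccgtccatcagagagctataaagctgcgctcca

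The same letters were counted on both strands in the promoters of all 27025 genes of the RefSeq table. GTTAAT was in 11.8% of the 944 matched genes called higher in liver and 4.84% of the 1466 called lower, beside 8.24% of all genes and 6.06% of the 7354 tested. Among the 100 largest differences toward liver it was in 19 of 79 matched genes, and among the 100 largest toward heart in 7 of 84. CAAAGTCCA was in 1.48% of genes called higher in liver and 0.48% of those called lower, beside 0.56% of all genes and 0.58% of those tested. The MEF2 consensus was in 2.33% of genes called higher in liver and 3.00% of those called lower, beside 3.70% of all genes and 2.30% of those tested. The CArG box was in 2.22% of genes called higher in liver and 2.39% of those called lower, beside 1.81% of all genes and 1.71% of those tested. Among the 100 largest differences toward heart, the MEF2 consensus was in 10 of 84 matched genes and the CArG box in 9. Among the 100 largest toward liver, each of these 2 motifs was in 3 of 79. TATAAA was in 21 of 79 matched genes of the 100 largest toward liver and in 21 of 84 of the 100 largest toward heart, beside 15.7% of all genes and 10.3% of those tested. Of 1104 matches of the MEF2 consensus, 229 overlapped TATAAA. A match says only that the letters are present.

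In 4 lists of plasma protein genes every tested member was called higher in liver. All 20 tested plasma transport and carrier genes, all 13 genes of apolipoproteins and lipoprotein assembly (which include the plasma enzyme Lcat and the intracellular transfer protein Mttp), all 17 tested clotting genes and all 15 tested complement genes were called higher, with list medians of 6.69, 6.20, 6.02 and 4.94. Apoa1, which encodes the chief apolipoprotein of HDL, ran from 7.79 to 11.1 in liver with a median of 8.73. In heart it ran from -0.32 to 4.64 with a median of 1.56, high at 1 hour, in the untreated mice and at 6 hours. The groups did not overlap, and the difference was 7.22 (SE 0.82, adjusted p = 2.39e-05). Plg, which encodes plasminogen, differed by 7.97 (SE 0.53), and Fga, a fibrinogen chain, by 7.75 (SE 0.69). Mbl2, a mannose-binding lectin that starts a complement pathway, varied least among the leading complement genes in liver, from 5.74 to 6.53, against -0.72 to 0.54 in heart. From 12 and 24 hours, 3 and 5 days alone, the 4 medians were 8.12, 6.81, 6.47 and 5.48. All 20, 13, 17 and 15 tested genes were again called higher. The heart arrays of those times had the lowest hepatocyte marker medians. The liver arrays of 12 and 24 hours were also among the brighter ones, with 95th percentiles of 5.15 and 5.36. The part of either in the medians was not tested.

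The pathways that hepatocytes run for the whole body were also higher in liver. Of the urea cycle and ammonia genes 8 of 9 tested were called higher and 0 lower, and of the gluconeogenesis and glycogen genes of liver 12 of 12. Cps1, which makes carbamoyl phosphate in the first step of the urea cycle, averaged 7.99 ± 1.24 in liver and 0.16 ± 0.97 in heart (SD, n = 8 each). Fbp1, a gluconeogenic phosphatase, ran from 6.26 to 7.21 in liver with a median of 6.79, against -0.09 to 1.91 in heart with a median of 0.35. G6pc, the last enzyme of glucose release, differed by 6.77 (SE 0.44). Among genes of amino acid breakdown 17 of 23 tested were called higher and 1 lower. Hal, the histidase that starts histidine breakdown, differed by 6.60, whereas Got1, the cytosolic aspartate aminotransferase, was called lower in liver at -1.72 (SE 0.13), a difference that shrank to -0.09 when arrays were scaled to a common spread.

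Of 16 bile acid genes on the arrays 12 were tested, and all 12 were called higher in liver. Of the 16, 8 were below the median on all 8 heart arrays. Of 10 peroxisomal fat breakdown genes 9 were tested, and all 9 were called higher. On untreated mice, 1 hour and 10 days alone 4 of the 9 peroxisomal genes were called, with a median of 0.92 in place of 2.09. Cyp7a1, the rate-limiting enzyme of bile acid synthesis, varied widely between liver arrays. It read 8.54, 8.62 and 9.40 in liver at 6, 12 and 24 hours and 4.55 to 5.25 at the other 5 times, against -0.73 to 0.63 in heart; the same 3 liver arrays had the higher 95th percentiles given above. Its difference was 6.84 (SE 0.67, adjusted p = 7.32e-06). Of the 22 tested cytochromes P450 of drug and steroid metabolism 21 were called higher in liver, with a list median of 6.95. Cyp4b1, a cytochrome P450 of extrahepatic tissues, was the exception, at 0.92 ± 0.35 in liver and 2.19 ± 0.32 in heart (SD, n = 8 each), a difference of -1.28 that was -0.95 after quantile normalization over the 16 arrays and no longer called. Of 15 tested conjugation enzymes 13 were called higher and 0 lower. Sult1d1, a sulfotransferase, was below the median on all 8 heart arrays, so it was at least 27.4-fold higher in liver, taking the array median as the floor. This bound and those given below hold only on the deposited scale and for the probe used. The other probes of Sult1d1 (0.41), Kcnip2 (-1.26 and -1.23), Chrm2 (-0.60) and Pklr (1.77 and 0.26) differed less than the probe used.

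Lipid synthesis and metal handling followed with smaller medians. Of 19 tested cholesterol and fatty acid synthesis genes 16 were called higher in liver and 0 lower, with a median of 2.69. Sqle, squalene epoxidase of cholesterol synthesis, differed by 4.38 (SE 0.43). Thrsp, a carbohydrate-responsive regulator of lipogenesis, ran from 4.40 to 9.75 in liver with a median of 6.36 and from 2.02 to 4.01 in heart with a median of 2.55. Iron and metal genes gave 7 calls higher and 1 lower among 11 tested. Hamp, which encodes the iron hormone hepcidin, differed by 5.19 (SE 0.28), while Hjv, its upstream co-receptor hemojuvelin, was called lower in liver at -1.32 (SE 0.14), or -0.95 and not called under the common spread scaling. Of 21 tested secretory pathway genes 11 were called higher and 0 lower, led by Ero1b, an oxidase of protein folding, with a difference of 3.00. The median of that list was 1.04, but 0.18 with 5 higher and 1 lower on untreated mice, 1 hour and 10 days, 3.72 with 18 higher under the common spread scaling, and 0.95 with 8 higher and 1 lower after quantile normalization. On those 3 times the medians of lipid synthesis and metal genes were 1.76 and 1.47, and under the common spread scaling 4.56 and 5.55, with 16 and 9 called higher.

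Transcription factors of liver were called higher in 12 of 14 tested cases and lower in 0, with a median of 2.82. Hnf4a, the nuclear receptor whose motif is shown above in Cyp2c70, ran from 5.08 to 6.22 in liver with a median of 5.29 and from 0.21 to 0.69 in heart with a median of 0.52. The groups were far apart, with a difference of 5.05 (SE 0.14, adjusted p = 1.15e-09). Foxa3, a forkhead factor of hepatocytes, differed by 6.24 (SE 0.33), and Nr1h4, the bile acid receptor FXR, by 5.94 (SE 0.35). Nr1i3, the drug sensor CAR, was below the median on all 8 heart arrays and at least 15.9-fold higher in liver. A mixed list of hormone receptors and growth factor genes of liver gave 5 calls higher among 6 tested, among them the glucagon receptor Gcgr with a difference of 3.96 (SE 0.10) and the growth factor gene Igf1 with 5.71 (SE 0.39). The tested member that was not called was the adrenergic receptor Adra1b, at -0.09.

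Transcription factors of heart were called lower in liver in 9 of 13 tested cases and higher in 0, with a median difference of -2.13. Ankrd1, a stress-responsive cofactor of the sarcomere and nucleus, differed by -7.22 (SE 0.16). Myocd, the myocardin that partners with serum response factor, averaged -0.05 ± 0.11 in liver and 4.02 ± 0.55 in heart (SD, n = 8 each). Nkx2-5, a homeobox factor of the heart, ran from -0.27 to 0.08 in liver with a median of -0.14, against 2.86 to 3.59 in heart with a median of 3.26. Srf, which encodes serum response factor itself, was read above the median on all 16 arrays, at 1.14 ± 0.14 in liver and 4.12 ± 0.23 in heart (SD, n = 8 each; difference -2.98, SE 0.09, adjusted p = 2.05e-09).

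Nearly all tested genes of the contractile apparatus were called lower in liver than in heart. All 12 tested genes of the list of thick filament and M band, which also holds the calcium store protein Casq2, and 15 of 16 thin filament and Z disc genes were called lower in liver, with medians of -6.52 and -6.25. A list of muscle energy genes, made of Mb (myoglobin), Ckm, Ckmt2, Fabp3, Cox6a2, Cox7a1, Cox8b, Ucp3 and Ak1, had all 9 called lower as well, with a median of -7.89. The filament gene not called was Tpm1, a tropomyosin that many cell types express, at 3.14 ± 0.24 in liver and 3.58 ± 0.15 in heart (SD, n = 8 each). Fhl2, a LIM protein of the Z disc, ran from -0.39 to -0.07 in liver with a median of -0.27 and from 7.25 to 8.07 in heart with a median of 7.61. It was below the median on all 8 liver arrays, so on the deposited scale it was at least 199-fold higher in heart. Under the common spread scaling its difference was -6.45 in place of -7.87. Mybpc3, cardiac myosin-binding protein C, differed by -7.73 (SE 0.20), and the giant spring protein Ttn by -7.73 (SE 0.24). Tcap, which caps titin at the Z disc, read 2.05 on the liver array of 1 hour and 0.42 or less on the other 7, against 8.04 to 8.40 in heart. On 12 and 24 hours, 3 and 5 days alone, the medians of both filament lists were -6.41 and -6.15, with 12 and 15 genes called lower in liver. Those times leave out the liver array of 1 hour but keep that of 24 hours, which had 6 of 11 cardiomyocyte markers above its median.

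Calcium handling gave 12 calls lower in liver among 14 tested and 0 higher, with a median of -2.33. Hrc, a histidine-rich calcium-binding protein of the sarcoplasmic reticulum, differed by -7.66 (SE 0.17). Pln, the phospholamban that restrains the calcium pump, ran from -0.48 to -0.10 in liver with a median of -0.35, against 4.29 to 6.13 in heart with a median of 5.73. On the deposited scale it was at least 43.8-fold higher in heart, and Casq2, the calcium store protein calsequestrin, at least 43.6-fold. Under the common spread scaling their differences were -4.81 and -4.73, in place of -5.77 and -5.71. Ion channel and gap junction genes gave 11 calls lower among 13 and 0 higher. Gja1, the connexin of ventricular gap junctions, was also read in liver, at 2.34 ± 0.41 against 7.17 ± 0.39 in heart (SD, n = 8 each). Kcnip2, a subunit of the transient outward potassium channel, was at least 6.11-fold higher in heart. Intercalated disc and costamere genes gave 11 calls lower among 13 and 0 higher, led by Popdc2, a membrane protein of cardiac muscle, at -6.76 (SE 0.10). Under the common spread scaling 7 of them were called lower and 1 higher, and calcium handling had 10 lower and 1 higher with a median of -1.49.

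Hormone and receptor genes of the heart differed in spread as well as in level. Nppb, the precursor of B-type natriuretic peptide, was below the median on all 8 liver arrays, from -0.35 to -0.16 with a median of -0.28. In heart it ran from 4.72 to 7.91 with a median of 6.15, so on the deposited scale it was at least 70.2-fold higher there. Under the common spread scaling its difference was -5.27 in place of -6.39. Sln, the atrial pump inhibitor sarcolipin, ran from 4.42 to 7.53 in heart, lowest at 1 hour and highest in the untreated mice, and read 1.90 in liver at 1 hour and -0.19 or less at the other times. Of the atrial and heart stress genes 9 of 11 were called lower in liver and 1 higher. The last was Clu, the secreted chaperone clusterin, at 8.05 ± 0.88 in liver and 6.92 ± 0.65 in heart (SD, n = 8 each; adjusted p = 0.0478). That call was lost under quantile normalization over the 16 arrays (0.90) and without the arrays of 6, 12 or 24 hours or of 3 or 5 days (0.88 to 1.26), and on the arrays of untreated mice, 1 hour and 10 days alone the difference was -0.30. Chrm2, the muscarinic receptor through which the vagus slows the heart, was at least 6.46-fold higher in heart.

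Liver and muscle forms of the same protein were called in opposite directions for the glucose transporters, glycogen phosphorylase, pyruvate kinase and the pair Cox6a1 and Cox6a2, but not for every pair. Of 15 tested muscle forms 14 were called lower in liver and 0 higher. Of 15 tested liver or widely expressed forms 7 were called higher in liver and 2 lower, against 13 higher and 0 lower when arrays were scaled to a common spread. The glucose transporter of liver, Slc2a2, averaged 4.70 ± 0.52 in liver and -0.43 ± 0.22 in heart, whereas the insulin-responsive Slc2a4 averaged -0.07 ± 0.17 in liver and 4.86 ± 0.25 in heart (SD, n = 8 each). Glycogen phosphorylase followed the same pattern, with a difference of 5.10 (SE 0.26) for the liver form Pygl and -4.62 (SE 0.08) for the muscle form Pygm. Pyruvate kinase did too. Pklr, the liver form, was below the median on all 8 heart arrays and at least 3.72-fold higher in liver, and Pkm, the muscle form, differed by -5.07 (SE 0.17).

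Some forms did not follow their name. Pfkl, the liver form of phosphofructokinase, was called lower in liver at -1.67 (SE 0.24) as deposited, but stood at 0.68 under the common spread scaling. It went along with the muscle form Pfkm, at -5.16 (SE 0.13). Arg1, the urea cycle arginase, differed by 7.52 (SE 0.51) and Mat1a, the hepatic methionine adenosyltransferase, by 7.79 (SE 0.69). The muscle genes Hk2 (hexokinase), Eno3 (enolase), Pgam2 (phosphoglycerate mutase) and Aldoa (aldolase) differed by -6.07, -7.12, -7.17 and -4.60. Hk1, also in the list of muscle forms, differed by -1.99. Phka1 of that list was not tested, and its brightest probe differed by -0.76. The wide forms Ldha, Pgam1, Phka2, Tpm3, Slc25a5 and Cox8a were not called, with differences from -0.26 to 0.52. Gys2, the liver glycogen synthase, read 3.60 to 4.81 in liver at 6, 12 and 24 hours and 0.86 to 2.59 at the other 5 times, and was at least 5.54-fold higher in liver. The probes of Cpt1a, Fabp1 and Arg2 were below the median on all 16 arrays and gave no level in either tissue.

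**Figure D4:**
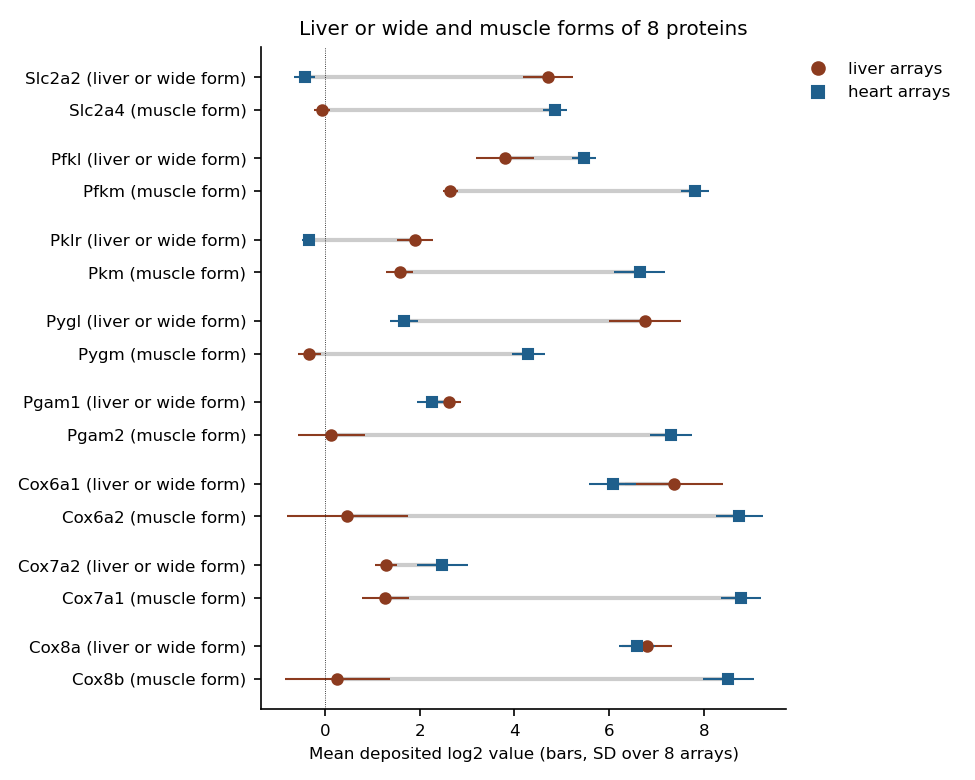
Mean deposited log2 value on liver arrays (brown circles) and heart arrays (blue squares) for 8 proteins with a liver or wide form and a muscle form, with bars for the SD over 8 arrays. Muscle forms such as Pygm and Cox6a2 lie toward heart throughout, and the liver forms Pfkl and Cox7a2 lie toward heart as well.

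Cytochrome c oxidase, the last complex of the respiratory chain, has muscle forms of several subunits. Cox6a2, Cox7a1 and Cox8b differed by -8.29 (SE 0.39), -7.51 (SE 0.15) and -8.26 (SE 0.28). Their wide forms differed far less. Cox6a1 was called higher in liver at 1.30 (SE 0.44, adjusted p = 0.024), Cox8a was not called at 0.20, and Cox7a2 was called lower at -1.20 (SE 0.17). The call of Cox6a1 was lost without the arrays of 6, 12 or 24 hours (1.04 to 1.08), and under quantile normalization over the 16 arrays (0.97), which also ended that of Cox7a2 (-0.90). Cox7a1 was read on every liver array, from 0.84 to 2.42 with the highest value at 1 hour, against 8.27 to 9.41 in heart.

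Mitochondrial energy genes as a whole were lower in liver as deposited, and this depended on the scaling of the arrays. Of 47 tested respiratory chain and ATP synthase genes 41 were called lower in liver and 1 higher, with a median of -1.499, but scaling the arrays to a common spread turned the median to 1.88, with 36 called higher and 3 lower. Of 18 citric acid cycle genes 15 were called lower and 1 higher, with a median of -2.16 that became 0.08 under that scaling. Of 16 fatty acid oxidation genes 7 were called lower and 0 higher, with a median of -0.82 that became 2.11. Under quantile normalization over the 16 arrays these medians were -1.73, -2.37 and -0.98. From 12 and 24 hours, 3 and 5 days alone, 26 respiratory chain genes were called lower in place of 41, and their median was -1.15. On 6, 12 and 24 hours and 5 days alone 15 respiratory chain genes were called lower and 3 higher (median -0.74), against 42 lower and 0 higher on untreated mice, 1 hour and 10 days (median -2.24). Fatty acid oxidation gave 4 lower and 2 higher on the first set of times (median -0.25) and 14 lower on the second (median -1.75).

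Some members stood well beyond their lists. Mdh2, the malate dehydrogenase of mitochondria, ran from 1.84 to 2.76 in liver with a median of 2.43 and from 6.21 to 6.59 in heart with a median of 6.36. The groups did not overlap, and the difference was -4.02 (SE 0.10, adjusted p = 6.04e-10). Cs, the citrate synthase that opens the cycle, differed by -3.63 (SE 0.09) and Idh3a, a subunit of isocitrate dehydrogenase, by -3.58 (SE 0.28). Cpt1b, the muscle carnitine palmitoyltransferase that admits fatty acids to mitochondria, differed by -6.06 (SE 0.12). Oxct1, the enzyme that lets a tissue burn ketone bodies, ran from 0.41 to 1.43 in liver and from 6.98 to 7.97 in heart, a difference of -6.76 (SE 0.16). Bdh1, which works at the other end of ketone metabolism in both directions, was called higher in liver at 1.92 (SE 0.40). That call was lost on untreated mice, 1 hour and 10 days alone, where Bdh1 averaged 5.04 in liver and 4.22 in heart. Under the common spread scaling Mdh2, Cs and Idh3a were still called lower in liver, at -1.97, -1.32 and -1.57, as were Cpt1b at -4.66 and Oxct1 at -5.05.

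Housekeeping lists gave no call as deposited. Of 40 tested cytosolic ribosomal protein genes and 26 proteasome genes 0 were called in either direction, with medians of -0.27 and -0.09. Under the common spread scaling 37 and 22 of them were called higher in liver, with medians of 3.16 and 3.04. The deposited values also differed between times. On 6, 12 and 24 hours and 5 days alone 10 ribosomal protein genes were called higher in liver and 1 lower (median 0.53), whereas on untreated mice, 1 hour and 10 days 22 were called lower (median -1.05). Proteasome genes gave 9 higher and 1 lower on the first set of times and 3 lower on the second. Of 14 tested core clock genes 1 was called, Nr1d2, a nuclear receptor of the clock's repressor arm, which was lower in liver at -1.12 (SE 0.25), or -0.86 and not called after quantile normalization over the 16 arrays.

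**Figure D5:**
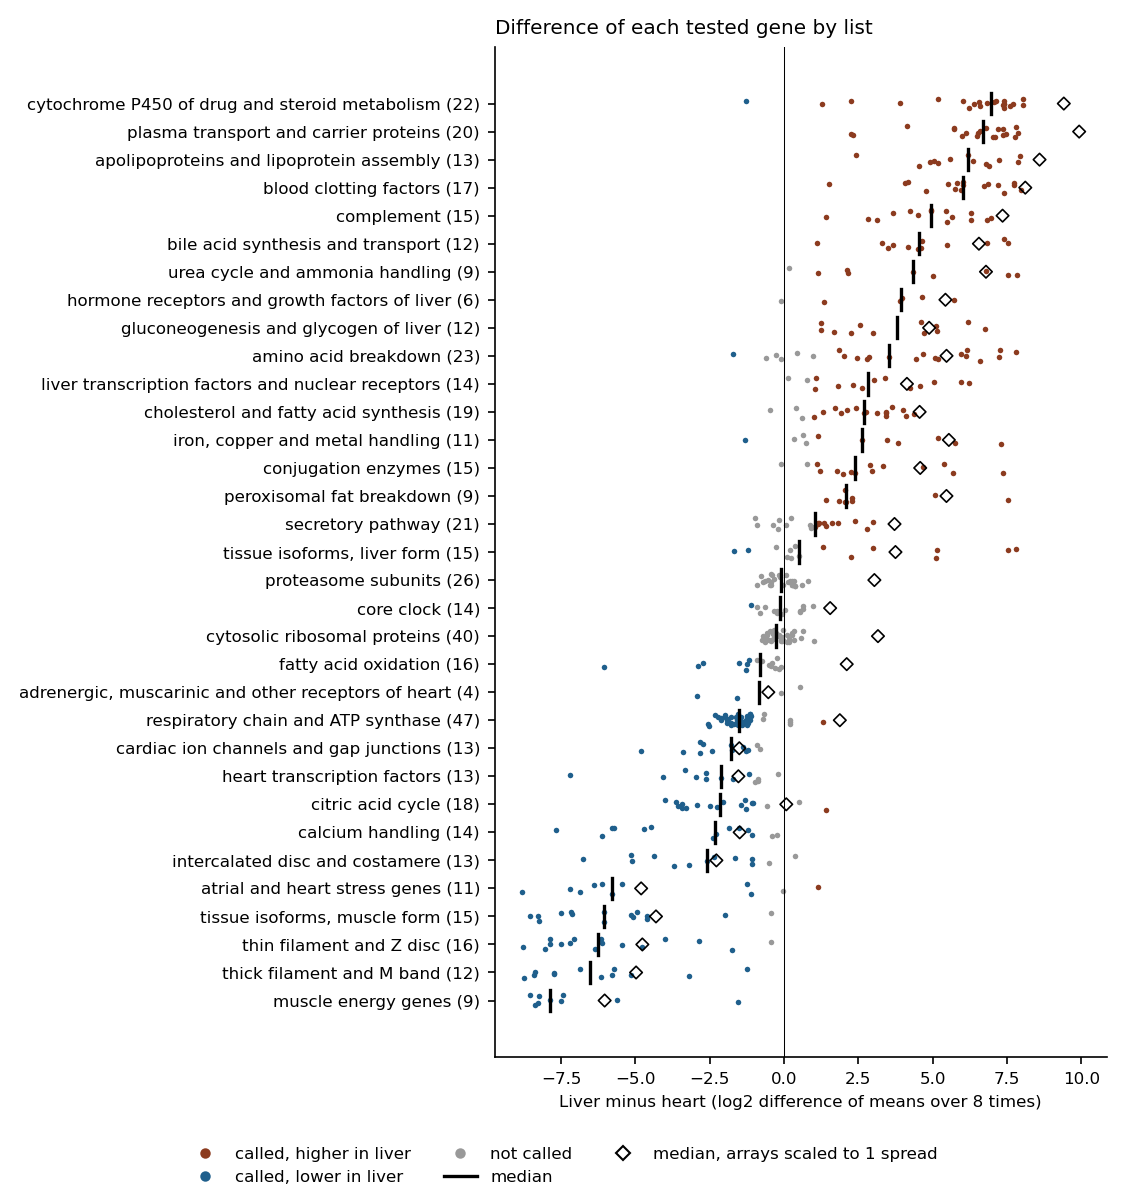
Liver minus heart difference of each tested gene by list, in log2 units, with the number of tested genes in brackets. Black bars are list medians. Open diamonds are the medians when arrays were scaled to a common spread, in scaled units that are not log2 units. Plasma protein and cytochrome P450 lists lie right and muscle lists left under both, whereas the diamonds of respiratory chain (1.88) and fatty acid oxidation (2.11) lie on the opposite side of 0 from their bars.

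Markers of the other cell types in each organ differed by cell type. Of 9 tested endothelial markers 8 were called lower in liver and 0 higher, with a median of -1.81, against 4 lower and a median of -0.50 under the common spread scaling. Emcn, the surface protein endomucin, averaged 1.12 ± 0.18 in liver and 4.53 ± 0.24 in heart (SD, n = 8 each). Markers of liver sinusoidal endothelium gave 4 calls higher and 1 lower among 7. Stab2, their scavenger receptor for hyaluronan, ran from 2.44 to 2.93 in liver with a median of 2.84, against -0.16 to 0.41 in heart with a median of 0.18. Lyve1, another hyaluronan receptor, was the member called lower in liver, at -1.13 (SE 0.18), a call lost without the arrays of 5 days and after quantile normalization (-0.93) or common spread scaling (-0.72). Heart endothelial and endocardial markers gave 6 calls lower among 7 and 0 higher. The transcription factor Tcf15 was at least 7.87-fold higher in heart. The list also holds Lpl, the lipoprotein lipase that feeds fatty acids to muscle, which differed by -5.91 (SE 0.28). Which cells made Lpl cannot be told from whole tissue.

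Clec4f, a lectin of Kupffer cells in the mouse, differed by 3.94 (SE 0.29) and Vsig4, a complement receptor of resident macrophages, by 2.88 (SE 0.37). Lyz2, the lysozyme of macrophages in general, was called lower in liver at -2.14 (SE 0.34), or -0.27 and not called under the common spread scaling, and the other 7 tested macrophage markers were not called. Fibroblast and matrix markers gave 10 calls lower in liver among 13 and 0 higher, with a median of -2.45. Mgp, a matrix protein that holds back calcification, ran from 0.99 to 2.25 in liver and from 6.52 to 7.85 in heart. Stellate cell markers split evenly, with 3 called higher and 3 lower among 6. Reln differed by 3.09 and the retinol-storing enzyme Lrat by 2.08, while Des, which is also the intermediate filament of cardiomyocytes, differed by -6.11. Of smooth muscle and pericyte markers 6 of 8 were called lower and 1 higher. Of 4 tested white fat markers 2 were called lower in liver and 1 higher, the last being Car3 at 4.92. Adipoq, the fat cell hormone adiponectin, was called lower in liver at -1.49 (SE 0.41), and its heart values ran from 0.22 to 4.28, highest in the untreated mice.

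The tissue difference was next compared between times. The correlation of the liver minus heart difference at a time with the mean of the other 7 times lay between 0.935 and 0.972 across tested genes, which are not independent replicates. Genes at least 2-fold higher in liver numbered 1790, 1598 and 1824 at 6, 12 and 24 hours and 1181 at 5 days. They numbered 1001 in the untreated mice, 915 at 1 hour, 986 at 3 days and 939 at 10 days. With 1 array of a tissue per time, these counts carry no test. The untreated arm is 1 pair of arrays, whose heart array carried the white fat markers given above, so the comparison with it does not inform on the treatment. No gene was called when the 7 treated times were set against the untreated pair (limma, lowest adjusted p = 0.922, with 124 of 9032 genes at an unadjusted p under 0.05). Adipoq, the fat cell gene that came first in it, had a signed liver minus heart difference 3.47 more positive in treated mice, with its high value in that untreated heart. No gene was called for a slope on log2 hours over the 7 treated times (lowest adjusted p = 1, with 79 genes at an unadjusted p under 0.05), but without the arrays of 1 hour 1387 were.

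Earlier results of these data had parted the arrays by the shape of their value distributions into those of 6, 12 and 24 hours and 5 days and those of untreated mice, 1 hour and 10 days. The signed liver minus heart difference was more positive in the first set than in the second for 3152 genes (34.9%). It was more negative for 549 (6.08%), both at an adjusted p under 0.05 with no fold limit. Where heart reads higher, as for Slc41a3 below, a more positive difference can be a narrower gap. Because the sets were parted by these same values, the counts describe the split and are no test of it. On the liver arrays of the first set the brightest value ran from 9.42 to 11.2, against 7.84 to 8.29 in the second, and on heart arrays the 95th percentile ran from 4.36 to 4.44, against 4.72 to 4.89. Set and time cannot be told apart in this design. After quantile normalization within each tissue the total was 1684 in place of 3701, and without the arrays of 1 hour it was 2302. Slc41a3, a magnesium transporter, read 0.53 to 0.89 in liver and 1.80 to 2.08 in heart in the first set, against -0.09 to 0.29 in liver and 4.18 to 4.45 in heart in the second. The change of its tissue difference was 2.98. Txndc5, a protein disulfide isomerase, had a change of 2.32, Pex11a, a peroxisome division factor, one of 2.79, and the ribosomal protein genes Rps9 and Rps19 changes of 1.86 and 2.02.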

How the data were processed

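Messenger RNA was amplified to labelled cRNA and read on Illumina bead arrays, per the labels' protocols. The authors deposited 25697 probes by 24 arrays as log2 values (base taken as 2, which no label states). The sources used here do not state how they corrected background or normalized, and the values show each array centred near 0. A second deposited table has 24 value columns that match no label and was not used, so detection p-values were lacking and the array median stood in for a detection limit. Of the probes, 23141 had 1 gene and 2556 none. Each of 16110 genes was read by its probe with the highest mean over the 24 arrays.

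The 16 arrays were fitted with limma 3.58.1 in R 4.3.3 (lmFit, eBayes, two-sided), with time as a block and Benjamini-Hochberg adjustment over 9032 genes, and the code was tested on simulated data. Shared times did not pair the tissues by the data: deviations of 2 of 8 pairs correlated over 0.1 (range -0.22 to 0.31). Of the other tests, treated against untreated and the slope used the 8 or 7 differences between tissues at a time. A bound sets the brighter tissue's mean against the dimmer tissue's array medians and holds only on the deposited scale and for the probe used. Genes named are the 10 largest each way, up to 4 called members of a list toward its tissue and 2 against it, all isoform members, and the genes with the lowest adjusted p in the time tests; Serpina1c, Tnni2, Amy2a5 and genes named to describe a list's makeup were chosen after their values were seen. Members and lists were chosen with earlier results of these data known. The number of arrays limits precision. Promoter windows come from RefSeq (GRCm38.p6).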

Additional observations from a re-analysis of the deposited data

Results flagged for a closer look

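Within a tissue's 8 arrays, a highest or lowest value was marked where its gap to the nearest array took up more of the range than chance gives in about 1 of 20 groups; 128 genes were looked at in each tissue and 30 values were marked. Of these, 20 were high values on the liver array of 1 hour, and 18 of the 20 genes belong to the heart or muscle lists. There the array read 4.18 for Tnni2, 3.51 for Mb, 3.43 for Cox6a2, 3.01 for Ckmt2, 2.94 for Cox8b, 2.90 for Fabp3, 2.42 for Cox7a1, 2.05 for Ckm, 2.05 for Tcap, 2.00 for Ttn and 1.90 for Sln. It read 1.85 for Pgam2, 1.81 for Des, 1.77 for Eno3, 1.73 for Actn2, 1.44 for Hrc, 0.45 for Ak1 and 0.22 for Pygm. The others there were pancreatic genes, the amylase Amy2a5 at 2.10, against -0.15 on the next liver array, and the elastase Cela1 at 5.48, against 3.73. The share of the heart or muscle lists among the 128 genes was not counted. Tnni2 and Amy2a5 were chosen after their values were seen.

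The heart array of 1 hour was highest for 4 liver genes, at 1.48 for G6pc, 1.01 for Hal, 0.63 for Cyp7a1 and 0.064 for Slc2a2, and lowest for Chrm2 at 2.00. The untreated heart array was highest for Adipoq at 4.28, against 1.85 on the next. Liver values stood apart for Hal at 24 hours (7.74), Nr1d2 at 3 days (1.86), Pkm at 5 days (0.94) and Stab2 at 5 days (2.44). The part of transcripts from other tissues in these values was not tested.

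The liver minus heart difference was also set between 6, 12 and 24 hours and 5 days on the one side and untreated mice, 1 hour and 10 days on the other. These sets were parted by the values of the same arrays, so the changes are a description. The change was 2.98 for Slc41a3, 2.79 for Pex11a, 2.32 for Txndc5, 2.19 for Trp53inp2, 2.02 for Rps19 and 1.86 for Rps9. Trp53inp2 encodes a regulator of autophagy.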

How the results depend on the processing

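In place of 2982 calls, 2947 to 3020 were made when the arrays of any 1 time were left out, 2877 to 2922 of them among the 2982, with 1097 to 1211 higher in liver and 1759 to 1923 lower. Without the time block (no replicate block) 2985 genes were called, 1157 higher and 1828 lower. On 12 and 24 hours, 3 and 5 days alone, a setting chosen after seeing the data, 2971 were called, and 2750 of the 2982 kept their call. The totals moved by over 1.5 times with the rule for a call: 1318 at 4-fold (645 higher, 673 lower), 1194 lower with treat, 6014 with no fold limit (1991 and 4023), and 1934 when only genes above the median on all 16 arrays were tested (689 higher). Scaling to a common spread gave 3331 higher and 797 lower and was the setting that reversed calls among those run on all 8 times, 133 of 2982; the cause was not tested. Among named genes it turned Pfkl to 0.68, and the untreated, 1 hour and 10 day arrays alone turned Clu to -0.30. Tnni2 was called lower in liver only without the 1 hour array (-1.15) or in settings that leave it out. Treated against untreated gave 1 call after quantile normalization over the 16 arrays, in place of 0, and 0 to 0 with times left out. The slope gave 0 to 1387 calls with times left out, 1387 of them without 1 hour. The comparison of array sets, a description, gave 3701 genes, 1684 and 1536 after quantile normalization within and across tissues, and 2302 to 5133 with times left out. With no detection limit, genes dim in both tissues could not be judged.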

Other observations

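Markers of further cell types were few on these arrays. Of 3 tested lymphocyte markers and 2 tested neutrophil markers 0 were called, and 8 of 11 lymphocyte markers on the arrays were not tested because they lay below the median on most arrays. Of 4 tested erythroid markers 3 were called lower in liver, against 1 lower and 2 higher when arrays were scaled to a common spread. Among them Slc4a1, the anion exchanger of red cells, averaged 0.22 ± 0.40 in liver and 1.22 ± 0.79 in heart (SD, n = 8 each), and Hbb-bt, a beta globin gene, averaged 1.29 ± 0.55 in liver and 3.97 ± 0.79 in heart. Of 5 tested skeletal muscle markers 1 was called, Ckm, the muscle creatine kinase that heart shares, at -7.44 (SE 0.24). Of 4 tested neuron markers 1 was called higher in liver and 2 lower, and the single tested cholangiocyte and thyroid or thymus markers were not called. Of the kidney, pancreas and gut markers 1 was tested and called, Cela1, a pancreatic elastase gene, which ran from 2.52 to 5.48 in liver and from -0.41 to 0.11 in heart. Of 4 tested receptors of heart 2 were called lower in liver, among them the natriuretic peptide clearance receptor Npr3 at -1.58 (SE 0.10).

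The brain arrays, which entered only the choice of probes, an alternative filter and an alternative fit of all 24 arrays, place the called genes on a wider scale. Of the 1154 genes called higher in liver, brain lay below both tissues for 59.4%, between them for 33.2% and above both for 7.5%. Of the 1828 called lower in liver, brain lay below both for 25.9%, between them for 46.2% and above both for 27.8%. Brain arrays have their own spread of values, so these shares hold only on the deposited scale. For 1105 called genes that have more than 1 probe, 1548 of 1835 other probes differed in the direction of the probe used and 287 in the opposite one, 2 of them by at least 2-fold.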
